A study of Mus musculus with 4 samples.

Results

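Egr1, Egr2, Egr3, Nab2, Nr4a1, Nr4a2 and Nr4a3 are genes that T cells switch on within a short time of signalling through the T cell receptor (TCR), and their surroundings were searched for E2A binding in thymocytes of L-DKO mice. Every peak of an E2A ChIP-Seq list was taken whose midpoint lay in the body of 1 of these 7 genes or within 100 kb of it on the mm9 genome. This gave 45 of the 17532 peaks called in DP cells and 4 of the 1516 peaks called in iNKT cells, around 7 of the 22350 protein-coding genes annotated on chromosomes 1 to 19 and X. All 7 genes had a DP peak, and 3 of them, Egr3, Nab2 and Nr4a3, had an iNKT peak. DP cells are CD4 and CD8 double-positive thymocytes, sorted as CD1dTet- CD4+ CD8+, and iNKT cells are invariant natural killer T cells, sorted as CD1dTet+ TCRβ+ with a tetramer of the lipid-presenting molecule CD1d. The study took DP cells as the population before selection on CD1d and iNKT cells as the population after it. L-DKO mice (Id2f/f Id3f/f LckCre+) lack both Id2 and Id3 in the T lineage, where the Lck promoter drives Cre, so both cell types carried the same deletion and no cells with intact Id genes were analysed here. The mice were 3 to 5 weeks old, on a C57BL/6 or mixed C57BL/6 and 129 background, and cells were pooled from 3 to 4 of them. Each cell type had 1 E2A library and 1 input library, so no value below has a replicate error and no difference between the cell types was tested. The lists hold peak positions and no expression, so the sorted identity of the cells could not be checked against marker genes, and the input libraries were not analysed here.

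E2A is a basic helix-loop-helix protein that binds E-boxes, short DNA motifs such as CAGGTG and CAGCTG, and Id proteins block it by pairing with it in a form that does not bind DNA. EGR proteins are zinc finger transcription factors made within minutes of TCR signalling, NAB2 is a corepressor that binds them and limits their activity, and NR4A proteins are orphan nuclear receptors induced by the same signal. In the thymus EGR factors act downstream of pre-TCR and TCR signals and induce Id3, EGR2 is needed for iNKT cell development, and NR4A1, also called Nur77, rises with the strength of the TCR signal and promotes death of strongly self-reactive cells.

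The DNA under 6 of the peaks is shown with its E-box cores marked. Each stretch is the 300 bases of its peak that hold the most E-box cores without touching an annotated exon, read 5′ to 3′ on the plus strand of mm9, with CAGGTG, its reverse complement CACCTG and the palindrome CAGCTG in capitals. The first lies in the highest DP peak of all 7 genes, between Grasp and Nr4a1, and holds 3 cores of the CAGGTG kind and 3 of the CAGCTG kind, with one of each kind directly joined in the run CACCTGCAGCTG. The second lies in the next highest peak, closer to Nr4a1, with 1 core of each kind. The third lies upstream of Nr4a3 in a tandem array, where 15 CAGGTG cores follow each other on the same strand. The fourth lies just upstream of the Nab2 start site, within Tmem194, in a DP peak that overlapped an iNKT peak, and has 1 core of each kind. The fifth comes from the only DP peak inside Egr2, in its intron, with 1 CAGCTG core. The sixth lies upstream of Nr4a2 in the higher of its 2 peaks and has 2 cores of the CAGGTG kind that face opposite ways.
Nr4a1, far upstream peak, chr15:101065846-101066145: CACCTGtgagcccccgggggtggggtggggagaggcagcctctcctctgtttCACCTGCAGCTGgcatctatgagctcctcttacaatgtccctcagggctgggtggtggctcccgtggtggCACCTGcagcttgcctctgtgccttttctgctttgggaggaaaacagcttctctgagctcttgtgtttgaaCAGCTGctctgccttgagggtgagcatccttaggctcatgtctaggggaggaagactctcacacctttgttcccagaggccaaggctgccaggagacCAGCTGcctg
Nr4a1, near upstream peak, chr15:101088846-101089145: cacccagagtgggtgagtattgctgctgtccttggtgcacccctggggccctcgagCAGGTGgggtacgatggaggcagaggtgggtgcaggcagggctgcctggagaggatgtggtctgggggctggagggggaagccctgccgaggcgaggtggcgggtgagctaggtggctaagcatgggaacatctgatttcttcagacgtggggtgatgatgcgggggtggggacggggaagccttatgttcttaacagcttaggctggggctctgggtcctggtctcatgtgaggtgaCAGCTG
Nr4a3, upstream array, chr4:48048768-48049067: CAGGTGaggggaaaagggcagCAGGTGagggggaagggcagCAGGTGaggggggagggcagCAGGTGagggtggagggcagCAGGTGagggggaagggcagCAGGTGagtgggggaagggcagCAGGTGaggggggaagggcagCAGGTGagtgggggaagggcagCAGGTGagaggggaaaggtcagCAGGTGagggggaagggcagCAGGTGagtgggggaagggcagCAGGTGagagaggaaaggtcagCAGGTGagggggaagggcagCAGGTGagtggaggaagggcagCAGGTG
Nab2, promoter side, chr10:127105908-127106207: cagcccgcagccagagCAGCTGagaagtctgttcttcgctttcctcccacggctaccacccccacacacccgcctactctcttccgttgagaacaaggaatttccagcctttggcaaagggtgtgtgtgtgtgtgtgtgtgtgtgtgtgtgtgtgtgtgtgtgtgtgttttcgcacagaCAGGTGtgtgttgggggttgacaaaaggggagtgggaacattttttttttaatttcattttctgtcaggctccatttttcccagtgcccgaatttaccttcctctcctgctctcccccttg
Egr2, intron, chr10:66999469-66999768: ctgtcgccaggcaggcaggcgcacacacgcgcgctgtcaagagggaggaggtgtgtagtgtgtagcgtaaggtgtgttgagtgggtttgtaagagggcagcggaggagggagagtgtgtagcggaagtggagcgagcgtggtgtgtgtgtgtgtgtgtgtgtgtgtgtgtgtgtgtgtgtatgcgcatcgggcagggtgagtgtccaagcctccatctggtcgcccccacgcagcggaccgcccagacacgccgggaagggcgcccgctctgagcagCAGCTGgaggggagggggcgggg
Nr4a2, upstream, chr2:57028979-57029278: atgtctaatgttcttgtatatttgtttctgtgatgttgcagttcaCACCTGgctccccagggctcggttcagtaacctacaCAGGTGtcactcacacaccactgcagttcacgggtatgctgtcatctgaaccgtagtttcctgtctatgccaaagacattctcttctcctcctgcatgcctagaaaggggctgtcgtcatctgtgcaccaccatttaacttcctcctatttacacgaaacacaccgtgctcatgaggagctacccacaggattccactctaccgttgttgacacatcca

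The number of DP peaks differed from gene to gene, with 15 around Nr4a1, 7 around Nr4a3, 6 each around Egr1 and Egr2, 5 around Nab2, 4 around Egr3 and 2 around Nr4a2. A DP peak within 100 kb was common in these data: 65.1% of all protein-coding genes had one under the same rule, the median gene had 2, the upper quartile was 5 and the 90th percentile was 8. Of the 7 genes, 6 lay above the median of 2, and Nr4a2 was at it. Nr4a1 stood highest, since 1.95% of all protein-coding genes had at least as many DP peaks, against 15.2% for Nr4a3, 19.7% for Egr1 and Egr2, 25.1% for Nab2, 31.8% for Egr3 and 50.8% for Nr4a2. Of the 15 peaks around Nr4a1, however, 6 had the Nr4a1 start site as the nearest and 9 that of another gene. All 7 peaks around Nr4a3 were nearest to Nr4a3, so by nearest start site Nr4a3 had more peaks than Nr4a1. The 7 genes are short, from 2713 bp for Egr3 to 41295 bp for Nr4a3, so most of each window lay outside the gene. DP peaks fell inside the body of 4 genes (Egr2, Nr4a1, Nr4a2 and Nr4a3), where 20.4% of all protein-coding genes have one. An iNKT peak within 100 kb was found at 3 of the 7 genes, beside 16.9% of all protein-coding genes, and inside a gene body only at Nab2 among the 7, beside 3.00% of all genes. With 7 genes and 1 library per cell type these shares are descriptions.

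**Figure D1:**
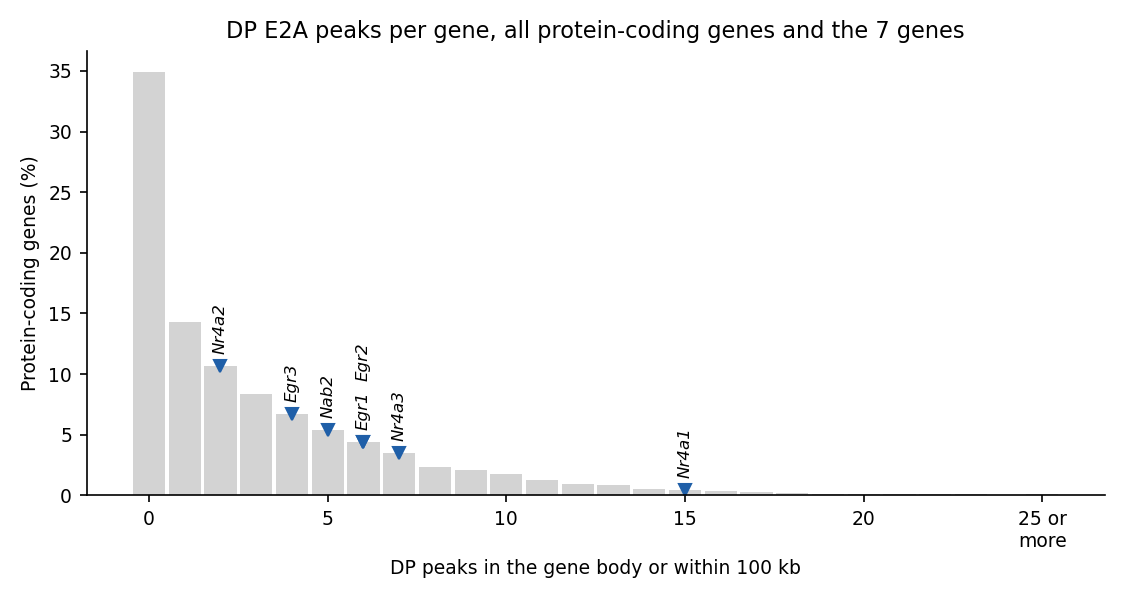
Grey bars give the percentage of the 22350 protein-coding genes (vertical axis) with each number of DP E2A peaks in the gene body or within 100 kb (horizontal axis), and triangles mark the 7 genes. Nr4a1 with 15 peaks lies far to the right of the other 6 genes, which have 2 to 7.

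The value given for a peak is its MACS score, the peak caller's p-value as a negative log10 multiplied by 10, and its rank counts from the highest score of its list. The lowest score in both lists was 50, a p of 1e-05. Scores rise with the number of reads, which the lists do not give, so a score is read within its list. The 45 DP peaks had scores from 52.2 to 3100 with a median of 132, close to the median of 141 over all DP peaks. Of the 45 peaks, 22 lay above that list median, and 26 of the 45 (57.8%) reached 100, beside 62.6% of all DP peaks. A score of 1000 was reached by 2 of the 45, both upstream of Nr4a1, beside 9.51% of all DP peaks. Their widths ran from 382 to 3364 bp with a median of 987 bp. By position, 7 lay inside a gene body, 22 upstream and 16 downstream. For 21 peaks the nearest protein-coding start site was that of the gene itself, and for 24 it was that of another gene, with median scores of 132 and 130. Peaks nearest to another gene are therefore described with that gene. At the edge of the windows, the last DP peak inside, 97.5 kb from the body of Egr3, scored 799 and the first outside, 101.4 kb from that of Egr2, scored 230. The last iNKT peak inside lay 97.7 kb from Egr3 with a score of 137, and the first outside lay 111.8 kb from it with a score of 128.

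**Figure D2:**
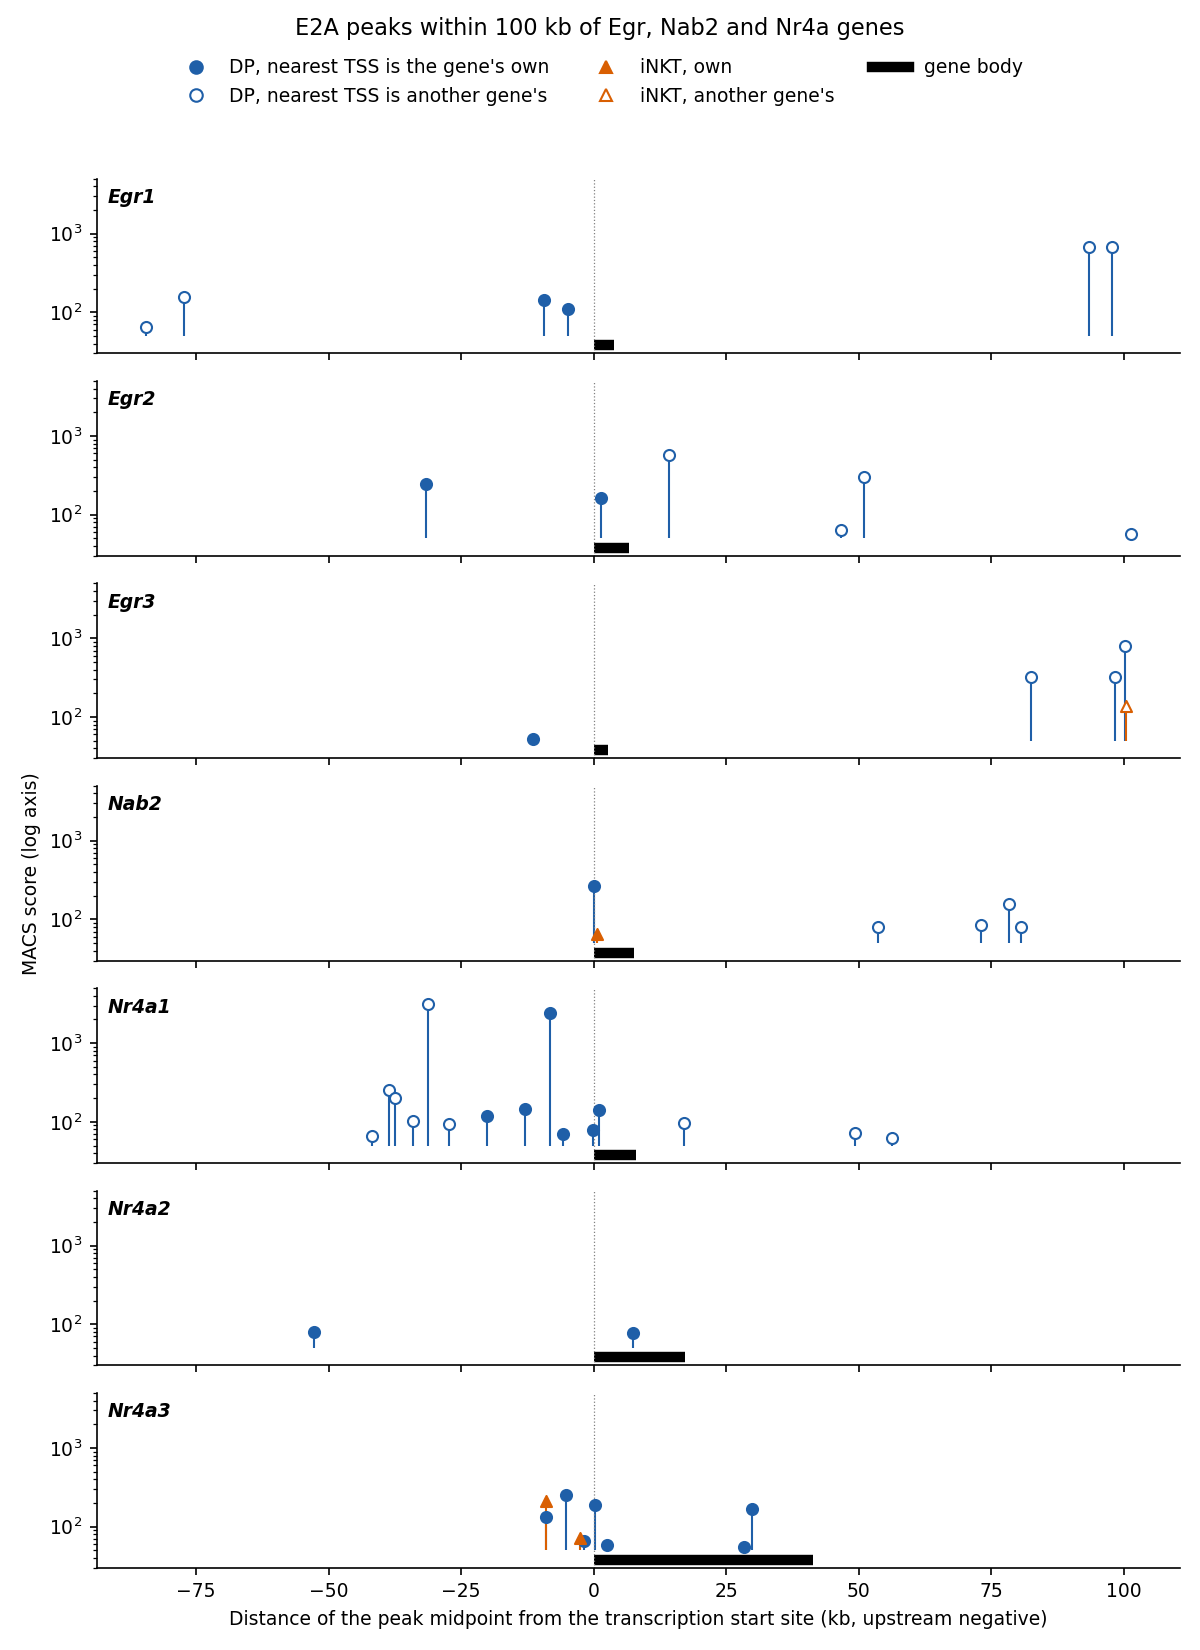
Each panel shows 1 gene, with the distance of peak midpoints from its transcription start site in kb on the horizontal axis (upstream negative, in the direction of transcription) and the MACS score on a log vertical axis, circles for DP peaks, triangles for iNKT peaks, filled symbols where the nearest start site is the gene's own and a black bar for the gene body. The 2 peaks above 1000 stand upstream of Nr4a1, the peaks of Nr4a2 and Nr4a3 are all filled, and those far downstream of Egr1, Egr3 and Nab2 are open.

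Nr4a1 encodes Nur77, whose level is widely used as a readout of TCR signal strength. It lies on chromosome 15 from 101097277 to 101105223, on the plus strand. Its highest DP peak spanned 101064409 to 101067772 and scored 3100, a value shared by 258 peaks of the list, which all have rank 27. With 3364 bp it was the widest of the 45 peaks, and its midpoint lay 31.2 kb upstream of the Nr4a1 start site in intergenic DNA. The nearest start site was that of Grasp, a scaffold protein gene, 11.5 kb away on the other side. This peak held 6 CAGGTG and 7 CAGCTG cores, the most CAGCTG cores of any of the 45 peaks.

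The second peak above 1000, from 101088037 to 101089907, scored 2443 at rank 465, in the top 2.65% of the DP list. It lay 8.31 kb upstream, with Nr4a1 as the nearest gene. The remaining 13 peaks were far lower, between 62.2 and 252. Among these, 4 (66.8, 252, 199 and 102) lay in Grasp. Between both high peaks were peaks of 95.2, 118 and 144, at 27.3, 20.1 and 12.9 kb upstream. Closest to the gene, a peak of 70.6 lay 5.80 kb upstream, a peak of 78.0 from 101096662 to 101097748 covered the start site, and a peak of 142 from 101097790 to 101098678 lay in an intron 0.957 kb after the start site. Downstream were 3 peaks (96.6, 72.5 and 62.2), none with Nr4a1 as its nearest gene. The peak over the Nr4a1 start site was thus in the lower part of its own window.

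From the Grasp intron to the Nr4a1 intron, 12 DP peaks followed each other within 43.6 kb, from 101055045 to 101098678, and covered 33.6% of that stretch. Counting peaks within 25 kb on either side of a peak, the densest point of this cluster had 12, a number reached by 0.251% of all DP peaks, where the list median was 3. The iNKT list had no peak here. Its nearest peak to Nr4a1 lay 302 kb away with a score of 61.6, so both of the strongest DP peaks of the 7 genes had no counterpart called in iNKT cells. The same held for most of the DP list, of which 6.00% overlapped an iNKT peak. Since the iNKT list was more than 10 times shorter and its depth is unknown, a missing iNKT peak is not a measure of how much less E2A was bound.

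**Figure D3:**
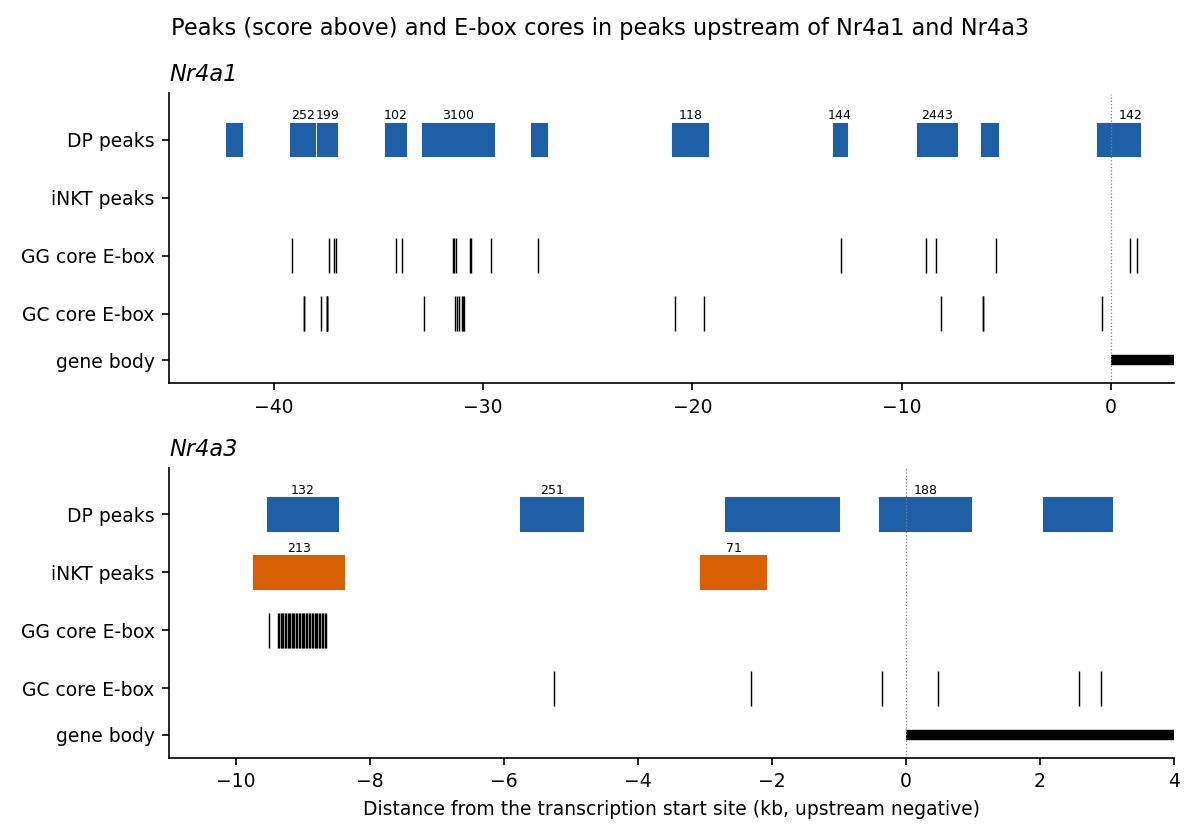
Boxes show DP and iNKT peaks to scale along the distance from the transcription start site in kb, with the score above each iNKT peak and each DP peak of at least 100, and ticks show E-box cores inside called peaks (GG core for CAGGTG on either strand, GC core for CAGCTG). At Nr4a1 the 12 DP peaks include those of 3100 and 2443 and no iNKT peak, whereas at Nr4a3 the row of 36 closely spaced GG cores lies under a DP peak of 132 and an iNKT peak of 213.

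Nr4a3 encodes Nor-1, a relative of Nur77 that overlaps with it in promoting thymocyte death. It lies on chromosome 4 from 48058025 to 48099319, on the plus strand. All 7 DP peaks of its window had Nr4a3 as their nearest gene, and 5 of them lay within 10 kb of its start site. None was strong in the DP list. The highest, 5.28 kb upstream from 48052285 to 48053207, scored 251 at rank 5856. A peak from 48057636 to 48059002 covered the start site with a score of 188. A peak of 169 lay in an intron 29.8 kb into the gene, next to one of 54.8, and peaks of 66.7 and 58.6 flanked the promoter at 1.84 kb upstream and 2.57 kb downstream. The seventh peak, 9.004 kb upstream from 48048504 to 48049539, scored 132 at rank 9156.

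Nr4a3 was the only one of the 7 genes with 2 iNKT peaks, which 3.18% of all protein-coding genes had or exceeded. The iNKT peak from 48048289 to 48049635 overlapped the DP peak at 9.004 kb. It scored 213 at rank 185, in the top 12.2% of the iNKT list, whereas the DP peak stood at the top 52.2% of its own list. The other iNKT peak, from 48054968 to 48055937 and 2.57 kb upstream, scored 70.9 at rank 877 and overlapped the DP peak of 66.7. That DP peak stood at the top 82.3% of its list and the iNKT peak at the top 57.9%. Among all 1050 iNKT peaks that overlapped a DP peak, 179 (17.0%) stood higher in their own list than the DP peak did in the DP list. The lists differ in length and depth, so a place in a list orders peaks and does not measure how much E2A was bound.

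The first of these places is the repeat whose sequence is printed above. Its DP peak held 36 CAGGTG cores, every one reading CAGGTG on the plus strand and none CACCTG. Of these, 35 lay within 724 bp, from 48048646 to 48049369, at steps of 20 to 23 bp with a median of 21 bp, and the remaining one lay 135 bp before them. The other 44 DP peaks held 60 CAGGTG cores among them, at most 6 in a peak, or 1.22 per kb. Over all 45 peaks, the array included, there were 1.91 per kb, beside 1.62 per kb over all DP peaks. As few as 8 DP peaks (0.0456%) and 3 iNKT peaks (0.198%) of the whole lists held 36 or more, where the medians were 1 and 2. At least 10 cores, at any spacing and on either strand, were found in 0.878% of DP peaks and in 3.56% of iNKT peaks. As many were present in 44 of the 1050 overlapping pairs (4.19%) and in 17 of the 179 pairs that stood higher in the iNKT list, a larger share. Of the 675 words of 50 bases that the array contains, 415 (61.5%) occur once within it, and the authors kept only reads with a single best position. How many copies of the repeat these mice carry is not known from the peak lists, and its part in the scores was not tested. The iNKT peak at 2.57 kb upstream held no CAGGTG and 1 CAGCTG core.

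Nr4a2 encodes Nurr1, best known from dopamine neurons. It lies on chromosome 2 from 56959241 to 56976414, on the minus strand, and had the fewest DP peaks and the lowest top score of the 7 genes. Its DP peaks scored 77.9 in an intron 7.44 kb after the start site (56968510 to 56969436) and 78.9 at 52.7 kb upstream (57028668 to 57029589), at ranks 12944 and 12840. Nr4a2 is also the only one of the 7 with no other protein-coding start site in its window, so both peaks had it as nearest gene. The nearest iNKT peak was 1033 kb away, the farthest among the 4 genes without one, where the distances began at 302 kb. Among the windows of the 3 NR4A genes the highest DP score was thus 3100 at Nr4a1, 251 at Nr4a3 and 78.9 at Nr4a2, whereas an iNKT peak was called at Nr4a3 alone. The peak of 3100 was nearest to Grasp, and the highest peak nearest to Nr4a1 scored 2443.

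Egr2, whose product is required for iNKT cells to develop, lies on chromosome 10 from 66998223 to 67004936, on the plus strand. Its window held 6 DP peaks, of which 2 had Egr2 as the nearest gene. One of these was the intronic peak, 1.396 kb after the start site, which covered 1845 bp and stood at rank 8006. The other, at 66966058 to 66967229 and 31.6 kb upstream, scored 243 at rank 5978 and had no other DP peak within 25 kb. The highest peak, 571 at rank 2970, lay 14.1 kb downstream of the Egr2 start site but 0.635 kb from the start site of Ado, a thiol dioxygenase gene. The last 3 peaks (64.7, 302 and 56.9) lay 46.7 to 101.2 kb downstream, nearest to the predicted gene Gm10797. The nearest iNKT peak was 346 kb away.

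Egr3, which acts with Egr2 in restraining activated T cells, lies on chromosome 14 from 70477252 to 70479964, on the plus strand. Only 1 of its 4 DP peaks had Egr3 as the nearest gene. This peak, at 70465280 to 70466164 and 11.5 kb upstream, scored 52.2 at rank 17024 and was the lowest of the 45. The other peaks were 82.4 to 100 kb downstream, at or near other promoters. A peak of 319 lay at 9930012K11Rik, and peaks of 325 and 799 lay at Pdlim2, an adaptor gene involved in turnover of NF-kB. The peak of 799, from 70576614 to 70578278, overlapped an iNKT peak from 70577024 to 70578284 with a score of 137 at rank 353. Its midpoint was 0.042 kb from the Pdlim2 start site, and both lay just inside the edge of the window. Without peaks that were nearest to another gene, Egr3 had 1 DP peak and no iNKT peak.

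Nab2, the corepressor of EGR proteins, lies on chromosome 10 from 127097974 to 127105624, on the minus strand, with 9 other protein-coding start sites in its window. Its 1 own DP peak, from 127104973 to 127106369, covered the start site and scored 264 at rank 5646. Its midpoint was 0.047 kb outside the annotated gene. The overlapping iNKT peak, from 127103532 to 127106384, was 2853 bp wide and reached into the gene body, with a score of 65.7 at rank 963. Of the 4 iNKT peaks this 1 covered the start site of its gene, which was so for 0.353% of all protein-coding genes. Here the DP peak stood higher in its list (top 32.2%) than the iNKT peak did (top 63.5%). Tmem194 overlaps this end of Nab2 on the opposite strand, so the peak can be assigned to either gene. The other 4 DP peaks, with scores from 79.6 to 158, lay in Lrp1, a large endocytic receptor gene, 53.6 to 80.6 kb past the Nab2 start site.

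Egr1, the most studied immediate early member of the family, had 6 DP peaks and no iNKT peak, the nearest of which was 984.8 kb away. It occupies 35020861 to 35024638 of chromosome 18, on the plus strand. Its own DP peaks were both upstream, 9.44 kb away with a score of 144 at rank 8625 and 4.87 kb away with 109 at rank 10387. The farther of them held 6 CAGGTG cores, the most of any of the 45 peaks outside the Nr4a3 array, together with the highest Nr4a1 peak. The other peaks were at neighbours, with 65.8 and 157 at Kdm3b, a histone demethylase gene, and 683 and 680 at Hspa9, a mitochondrial chaperone gene. The highest score in the Egr1 window therefore lay 0.325 kb from the Hspa9 start site and 93.5 kb from that of Egr1. A DP peak covered the start site of 3 of the 7 genes, Nab2, Nr4a1 and Nr4a3, beside 9.36% of all protein-coding genes.

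Each of the 4 iNKT peaks shared at least 1 bp with a DP peak, as 69.3% of all iNKT peaks did. The DP peaks so matched were 4 of 45 (8.89%), beside 6.00% of all DP peaks. Relative place differed among the 4 pairs. Both Nr4a3 pairs stood higher in the iNKT list than in the DP list. The Nab2 pair and the pair at Pdlim2 stood higher in the DP list, the latter at the top 12.2% against 23.3%. Over all 1050 overlapping pairs the median places were the top 40.3% for iNKT and 8.99% for DP peaks.

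**Figure D4:**
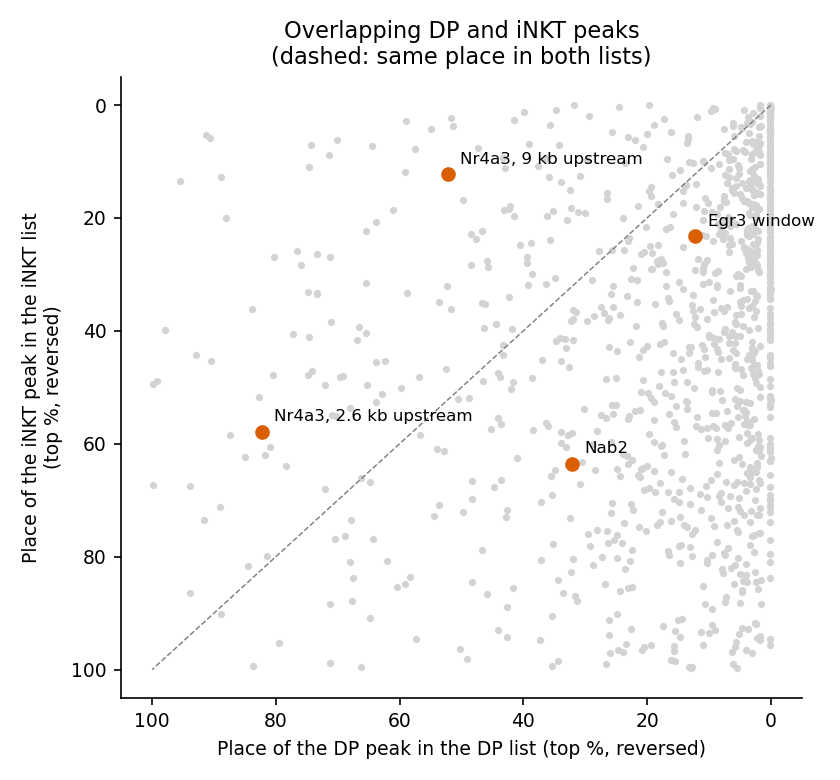
Each grey point is an iNKT peak that overlaps a DP peak, placed by the top percentage of its own list that the DP peak (horizontal) and the iNKT peak (vertical) reached, on reversed axes with the strongest peaks at the right and top, and a dashed line where both places are the same. Orange points mark the 4 pairs near the 7 genes, of which both at Nr4a3 lie above the line, and Nab2 and the Egr3 window, at Pdlim2, lie below it.

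Sequence features of the 45 DP peaks were read in the 300 bp at each midpoint, on both strands. CAGGTG was found in 20 of 45 (44.4%, Wilson 95% interval 30.9 to 58.8%, for counting error only), beside 54.6% of all DP peaks. CAGCTG was found in 19 of 45 (42.2%), beside 37.4%. Both shares lay near those of the list. The letters ACCACA, the core bound by Runx factors, were in 26.7% of the 45 peaks and 31.8% of all DP peaks, and TCAAAG, the core bound by Tcf and Lef factors, in 22.2% and 24.2%. GCGNGGGCG, bound by EGR proteins, was found in 1 of the 45 (2.22%), the peak at the Nr4a1 start site, beside 1.56% of all DP peaks. Over whole peaks GCGNGGGCG was found in 5 of 45 (11.1%, interval 4.84 to 23.5%), beside 4.35% of all DP peaks, ACCACA in 42.2% (29.0 to 56.7%), beside 63.5%, and TCAAAG in 62.2% (47.6 to 74.9%), beside 55.6%. CAGGTG was found in 71.1% of whole peaks, beside 79.0%, and CAGCTG in 62.2%, beside 63.4%. Over whole peaks the list share of ACCACA lay above the interval of the 45 peaks, and that of GCGNGGGCG just below it. These were 2 of 5 motifs read in 3 windows, and no difference was tested. The median GC content of the 300 bp was 57.0%, against 50.3% over all DP peaks.

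A list of 54 other genes of TCR-induced responses was searched in the same way. It holds early and feedback genes, markers of activation, regulators of Egr genes such as SRF and its ELK partners, and genes linked to EGR or NR4A factors, so not every gene on it is itself induced by the TCR. Within 100 kb, 52 of the 54 (96.3%) had a DP peak, beside 65.1% of all protein-coding genes, and 20 (37.0%) had an iNKT peak, beside 16.9%. All protein-coding genes include those that thymocytes do not use, and the difference was not tested. The median of the 54 was 7 DP peaks, 45 had more than the all-gene median of 2, and 27 had a DP peak of at least 1000. Among the 7 genes 1 had such a peak, Nr4a1, beside 18.0% of all protein-coding genes. Nr4a1 with its 15 peaks was exceeded by Socs1 and Socs3, both with 23, by Id3 with 21 and by Cd5 with 18.

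By role, all 14 AP-1 and other immediate early factors had a DP peak, the highest at Irf4 (3100), Ier5 (2732) and Fos (2117), and 4 of them (Irf4, Jund, Fosl1 and Atf3) an iNKT peak. Scores by role are the highest within 100 kb of each gene, including peaks that may be nearer to another gene's start site. The Fos peak, for example, lay 72.1 kb downstream of the Fos start site. The 6 listed genes of the EGR family, the NAB corepressor and the SRF module that induces Egr genes leave out Egr1, Egr2, Egr3 and Nab2. Of the 6, 5 had a DP peak, led by Elk4 (2397), Srf (1121) and Nab1 (627), and Elk1 had none. The Elk4 and Srf peaks lay 94.7 and 79.4 kb downstream of those start sites, and no DP peak in the Srf window was nearest to Srf. None of the 6 had an iNKT peak, beside 16.9% of all protein-coding genes. The iNKT peak in the Egr3 window lay at Pdlim2, and that at Nab2 can also be assigned to Tmem194. All 8 activation and selection markers had a DP peak, led by Il2ra (3100), Cd44 (2918) and Cd5 (1910). An iNKT peak was found at 5 of these markers, with highest scores of 403 at Tnfrsf9, 165 at Icos, 150 at Cd69, 98.0 at Fasl and 67.8 at Cd44.

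All 18 feedback regulators, which damp signalling or mRNA stability after activation, had a DP peak, and 4 of them (Btg2, Socs3, Nfkbia and Dusp5) reached 3100. An iNKT peak was found at 8 of them, the highest 442 at Socs3 and 220 at Btg2, followed by Spry2 (100), Nfkbia (92.9), Dusp2 (91.3), Zfp36l2 (54.2), Btg1 (53.5) and Tnfaip3 (51.3). Of the 8 genes linked to EGR or NR4A factors, 7 had a DP peak, led by Id3 (3100), Dgka (2257) and Bcl2l11 (1750), and Rnf128 had none. Id3, which EGR factors induce, had 5 iNKT peaks with a highest score of 375. Bcl2l11, which encodes the death protein Bim, had an iNKT peak of 75.5, and Zbtb16, which encodes the iNKT regulator PLZF, had one of 54.1. Id3 is itself deleted in these mice.

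**Figure D5:**
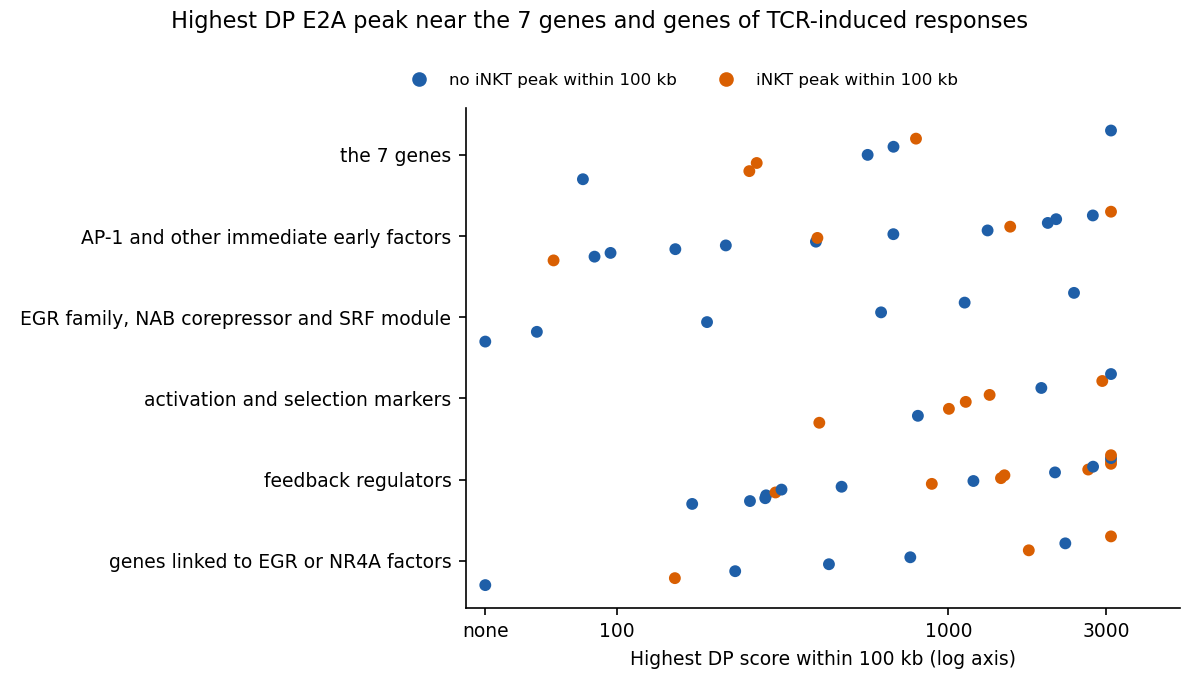
Each point is a gene, placed by the highest DP score within 100 kb on a log axis (none where no peak was called) and grouped by role (the 7 genes stand in a row of their own and in no other), orange where an iNKT peak lay within 100 kb and blue where none did. Among the 7 genes the highest DP score runs from 78.9 at Nr4a2 to 3100 at Nr4a1, and 3 of the 7 points are orange.

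The gene of that list most like each of the 7 was taken by the smallest summed difference in DP peaks inside the gene, DP peaks outside it and iNKT peaks. Egr1 matched Dusp1, a MAP kinase phosphatase gene, with no difference, and Egr2 matched Elk4 with no difference. For Egr3 the nearest were Fasl and Ier2, and for Nab2 Cish, Icos and Srf, each with a difference of 1. Nr4a2 was closest to Jun and Pdcd1, also at 1, and Nr4a1 to Fos, which had 13 DP peaks and no iNKT peak, at 2. Nr4a3 was least matched, with Btg2, Tnfrsf9 and Tox at 3. These likenesses are in counts of peaks alone.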

How the data were processed

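E2A ChIP-Seq was done on sorted L-DKO DP and iNKT thymocytes. Cells were fixed with EGS and formaldehyde, and chromatin was precipitated with an anti-E2A antibody. Reads were placed on mm9 by the authors with Bowtie 1.1.2, only those with a single best position being kept, and they called peaks once per cell type with MACS 1.4.2 against input. The deposited values are peak positions and the authors' MACS score. Reads and inputs were not analysed here, depth is unknown, and precision is therefore unknown beyond counting error.

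Peaks were assigned by midpoint with GENCODE M1 on NCBIM37, the mm9 assembly, to protein-coding genes, with distance to the annotated 5′ end. Rank is 1 plus the number of higher scores. Lists were intersected at a minimum of 1 bp. Motifs were searched on both strands, and shares have Wilson 95% intervals. Positions are 1-based. No test was made, as there was 1 library per cell type.

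The 7 genes and the list of 54 were chosen with earlier results of these data known. The genes named are the 7, the nearest neighbours of their peaks, up to 3 genes per group with the highest DP score (4 where they tied), all with an iNKT peak and the most alike. Socs1, Tmem194, and Elk1 and Rnf128, which had no peak, were named after their values were seen. Alternatives changed the window, minimum score, overlap, gene assignment and motif window, and leaving out peaks with 10 or more CAGGTG cores was added after seeing the data. The functions were tested on simulated data. Python 3.11.15, pandas 2.3.3, numpy 2.4.6, scipy 1.17.1, pysam 0.24.0, samtools 1.23.1 and matplotlib 3.10.9 were used.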

Additional observations from a re-analysis of the deposited data

How the results depend on the processing

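Of 39 alternative values for 8 results, 27 stayed within 1.5 times the reported count, or within the counting interval of a share, and 12 moved. All 7 genes had a DP peak with windows of 30 and 300 kb and with peaks given to the nearest start site only, and 6 had one at scores of at least 100 or 200, where Nr4a2 was lost. At a score of at least 100 the 45 DP peaks became 26, the 4 iNKT peaks 2, the overlaps 2 and the listed genes of TCR-induced responses with an iNKT peak 8 in place of 20. At a score of at least 200 they became 13 DP peaks and 1 iNKT peak, with 1 of the 7 genes and 4 of those listed genes keeping an iNKT peak. A window of 30 kb left 22 DP peaks, and peaks nearest to their own gene numbered 21. Requiring an overlap of 50% of both peaks left 2 of the 4 overlaps, at Pdlim2 and at the Nr4a3 array. The Nab2 pair and the Nr4a3 pair at 2.57 kb upstream were lost. CAGGTG was found in 71.1% of whole peaks, which are longer than the 300 bp searched, beside 79.0% of all DP peaks. Leaving out peaks with 10 or more CAGGTG cores, an alternative chosen after seeing the data, removed 1 DP and 1 iNKT peak and moved none of the 6 values it bears on beyond these limits. The 2 DP and iNKT libraries have no replicates and unknown depth, so the absence of an iNKT peak cannot be told apart from a shallower library. No paired analysis was possible because there was 1 library per cell type.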
